A study of Arabidopsis thaliana with 48 samples.

Results

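The 4 inflorescence samples of day 0 were set against the trend of the 20 samples taken on days 1 to 5 of a floral induction time course in Arabidopsis thaliana, 24 samples in all. All 24 samples came from Col-0 plants that carry pAP1:AP1-GR in the ap1 cal double mutant. The fusion of APETALA1 (AP1) to the glucocorticoid receptor domain was driven by AP1's own promoter, and the double mutant makes cauliflower-like inflorescences. Inflorescences were drenched from a pipette with 2 µM DEX (dexamethasone), 0.01% ethanol and 0.01% Silwet L-77, first at 8 h after lights on and then daily at 4 h after lights on. The groups were day 0 and days 1, 2, 3, 4 and 5 after induction, with 4 biological replicates per day, each sequenced in 2 batches. Plants grew at 21 °C in 16 h light and 8 h darkness. For every gene a straight line was fitted to the log2 level on days 1 to 5 and extended back to day 0, and the day 0 offset is the log2 ratio of the measured day 0 level to that extended line. Neither the hour at which samples were taken nor a mock-treated series is given in the sources used here. Nor do they say whether the day 0 samples were taken before the first drench. Hour of sampling, drenching and activity of the fusion protein therefore cannot be told apart in a day 0 offset.

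AP1 is a MADS box transcription factor that turns young meristems on the inflorescence flank into flowers, and CAULIFLOWER (CAL) is its close paralog. Without both, the flank meristems go on producing more inflorescence meristems. The hormone binding domain holds the fusion protein outside the nucleus until dexamethasone is added, so that many meristems enter the floral programme together. Plant transcripts also follow the circadian clock, with morning genes and evening genes that repress each other, and they respond within hours to wetting, darkness and respiratory stress.

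Library totals lay between 26560205 and 27979597 counts, and between 21672 and 22156 genes were detected per sample. The tissue label was checked against meristem genes on day 0: STM, which keeps cells undifferentiated, averaged 159 CPM (counts per 1000000), the stem cell genes WUS and CLV3 averaged 5.62 and 1.24 CPM, and LFY, the main floral identity regulator, averaged 48.5 CPM. On the second principal component of all genes (13.6% of the variance) the day 0 samples lay between -40.5 and -24.8, the samples of days 1 to 4 between -2.63 and 38.5, and those of day 5 between -30.6 and -15.9. Replicates of a day differed well beyond counting error, with a chi-square per degree of freedom of 3.62 to 62.4 over 36 pairs. The p-values measure the spread between these samples. In bulk tissue, fewer cells of a type and less RNA per cell cannot be told apart.

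Of 19747 genes tested, 3756 (19.0%) had a day 0 offset with an adjusted p under 0.05. The level was above the extended line for 2154 genes (10.9%) and below it for 1602 (8.11%), and 426 and 304 of them departed by at least 2-fold. The median offset over all tested genes was 0.00 and the median standard error 0.11. Scaled to library totals, which moved the median to -0.09, the split was 1493 higher and 3196 lower. The counts were 1379 and 963 without day 0 replicate 2, and 542 and 405 with replicate 2 left out on every day, a setting in which 43 of 110 named genes were no longer called.

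A higher offset did not always mean that day 0 held the highest level. Day 0 had the highest daily mean for 1241 of the 2154 genes above the line, whereas day 5 had it for 865. Day 0 had the lowest mean for 941 of the 1602 genes below the line, and day 5 for 637. All 4 day 0 levels lay above all 20 later levels for 548 of the genes called higher and below them for 345 of those called lower, against 797 (4.04%) and 625 (3.17%) of all tested genes. Once the slope was taken off every sample, the 4 day 0 values lay outside the other 20 for 9.20% of genes. A bend within days 1 to 5 was called for 472 genes (2.39%), of which 261 also had a called day 0 offset. When a curve in place of a line was drawn through days 1 to 5, the median standard error of the offset was 0.17 and 94 genes (0.476%) were called, 61 higher and 33 lower. The offsets below are therefore departures from a straight line, and a gene is said to hold under the curve only where it was among those 94.

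**Figure D1:**
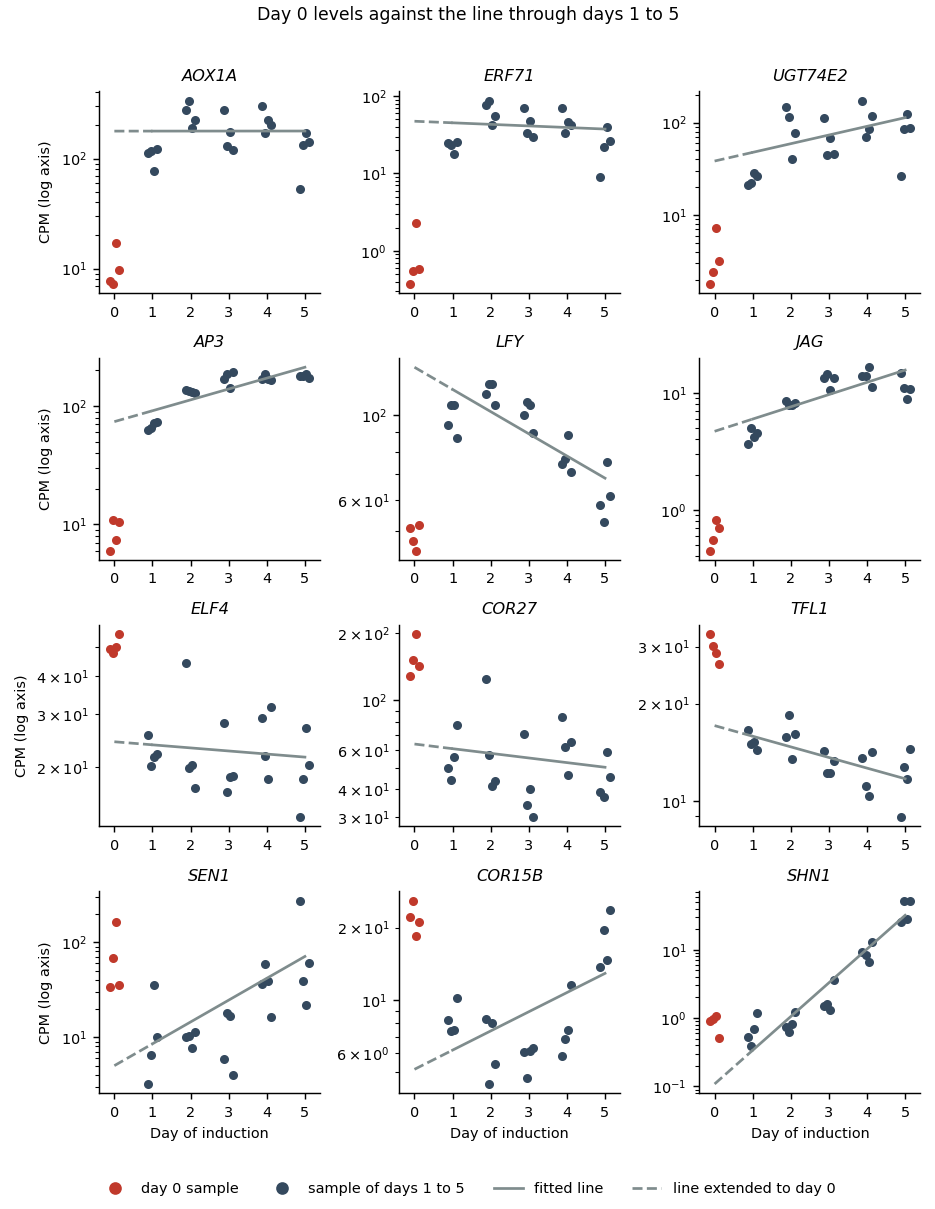
Levels of 12 genes in every sample, as CPM on a log axis, by day of induction; red points are the 4 day 0 samples, dark points the 20 later samples, and the grey line is the fit to days 1 to 5, dashed where it is extended to day 0. AOX1A, ERF71, UGT74E2, AP3, LFY and JAG lie below the later samples on day 0, ELF4, COR27 and TFL1 lie above them, and SEN1, COR15B and SHN1 lie above the dashed line while overlapping later levels.

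Genes of mitochondrial stress were among those far below the line. Plant mitochondria under respiratory stress signal to the nucleus through membrane-bound NAC factors, and the nucleus answers with alternative oxidase and alternative NAD(P)H dehydrogenases, which pass electrons around the main chain. Of 10 tested genes of this list, 6 passed the test below the line and none passed it above, with a median offset of -1.69. Over all tested genes, 8.11% were called lower and 10.9% higher. AOX1A, the main alternative oxidase, was at 7.74, 7.28, 17.1 and 9.8 CPM on day 0, against 52.6 to 336 CPM in the 20 later samples. No day 0 value reached the later range, and the offset was -4.08 ± 0.51 (SE, adjusted p = 1.63e-05). AOX1A was among the genes picked for size, and the rule for these, given below, largely required this separation. Later means stood at 108, 257, 175, 224 and 124 CPM on days 1 to 5, with no slope (0.00 per day). NAC013, one of the NAC factors that carry the signal, was at 21.4, 23, 30.5 and 23.5 CPM on day 0 and between 47.4 and 268 CPM later. Its groups were likewise separate, and its offset was -3.07 ± 0.35 (adjusted p = 5.66e-06).

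NDB4, an external alternative NAD(P)H dehydrogenase, was nearly silent on day 0, at 0.224, 0.197, 0.425 and 0.184 CPM (27 counts in all 4 samples), against 2.99 to 33.1 CPM later. NDB4 could not pass the expression filter without later samples, where it was higher, so its negative offset was in part set by the filter. Its offset was -5.68 ± 0.94 (adjusted p = 0.000307), the largest negative one among the genes picked for size. BCS1, an ATPase of the mitochondrial outer membrane, was at 3.07, 5.98, 5.13 and 4.13 CPM on day 0, against 8.71 to 51 CPM later, and its offset was -1.90 ± 0.49 (adjusted p = 0.00894). The internal dehydrogenase gene NDA2 had a small offset of -0.35 ± 0.10 (adjusted p = 0.0195), which was lost without day 0 replicate 2 (adjusted p = 0.0729). AOX1D, a second alternative oxidase gene named after its values were seen, was at 0.0748, 0.118, 1.35 and 0.295 CPM on day 0 and between 1.15 and 10.3 CPM later. Day 0 replicate 3 overlapped the later samples for AOX1D, and its offset of -2.66 ± 0.85 (adjusted p = 0.0296) was lost without any one of day 0 replicates 1, 2 and 4 (adjusted p up to 0.0938). Like NDB4, AOX1D could not pass the filter without later samples. The uncalled members were the dehydrogenase genes NDB2, NDB3 and NDA1, and NAC017, a further NAC factor of this pathway. Summed over the list, day 0 samples held 146 to 173 CPM and later samples 270 to 814 CPM, the lowest in day 5 replicate 1. Of the 10, 5 had all day 0 levels below the later ones and 1 had them all above, beside 3.17% and 4.04% of all tested genes. There were 4 calls without day 0 replicate 2, and 7 with library totals.

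Detoxification genes were called lower as well. The list holds glutathione transferases, glycosyltransferases, cytochrome P450 enzymes and an efflux carrier that modify or export foreign compounds. Of 18 tested members, 9 passed the test below the line and none passed it above, and the median offset was -1.96. The shares over all tested genes were 8.11% lower and 10.9% higher. UGT74E2, which glycosylates indole-3-butyric acid, was at 1.8, 2.44, 7.18 and 3.21 CPM on day 0, against 21 to 173 CPM in later samples, with an offset of -3.39 ± 0.68 (adjusted p = 0.00142). DTX1, a multidrug efflux carrier, was at 0.486, 0.472, 0.849 and 0.295 CPM on day 0 and between 3.58 and 34.3 CPM later, with an offset of -4.02 ± 0.82 (adjusted p = 0.00148). The groups of both genes were apart, which the rule for genes picked for size, given below, largely required. The P450 genes CYP81D8 (-2.97 ± 0.61) and CYP81D11 (-2.05 ± 0.37), the glutathione transferase gene GSTF7 (-2.84 ± 0.67) and the glycosyltransferase gene UGT73B4 (-4.02 ± 0.98, on 19 day 0 counts in all) also fell, with adjusted p between 0.000509 and 0.00574. DTX1, CYP81D11 and UGT73B4 could not pass the expression filter without later samples, so their negative offsets were in part set by it. Without day 0 replicate 3, which was the highest of the 4 for UGT74E2, DTX1, CYP81D8, CYP81D11, GSTF7 and UGT73B4, 10 members were called.

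Outside the lists, other genes among the 12 with the largest negative offsets were low on day 0. SOT12, a sulfotransferase, was at 14.1, 15.9, 30.5 and 17.8 CPM on day 0, against 74.5 to 539 CPM later, with an offset of -3.43 ± 0.56 (adjusted p = 0.000247). ABCG40, a plasma membrane importer of abscisic acid, was at 0.299, 0.315, 0.695 and 0.7 CPM on day 0 and between 2.12 and 31.6 CPM later (-4.01 ± 0.91, adjusted p = 0.00332). The groups were apart for both. Genes picked for size had to have all day 0 values outside the later ones once the slope was taken off. Separate groups were therefore largely set by that rule and are no added evidence for SOT12 and ABCG40. The same holds for AOX1A, NDB4, ERF71, UGT73B4, DTX1, UGT74E2 and AP3, which were also among the 12. The rule held for the remaining genes of the 12 as well. The P450 gene CYP709B2 (-3.52 ± 0.60, adjusted p = 0.000354), the protein kinase gene AGC2-1 (-3.24 ± 0.66, adjusted p = 0.0016) and FOP1, a petal epidermis gene of the wax ester synthase family (-3.34 ± 0.53, adjusted p = 0.000193), completed that set with AP3, described below. Of these 5, FOP1 had a called later slope (0.59 per day) and reached a mean of 25.7 CPM on day 5. ABCG40, AGC2-1 and FOP1 could not pass the expression filter without later samples, so their negative offsets were in part set by it.

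Among 16 tested low oxygen genes, 2 fell and 2 rose, beside 8.11% lower and 10.9% higher over all tested genes. ERF71, an oxygen-labile factor that switches on fermentation genes, had the second largest negative offset of the genes picked for size. It was at 0.374, 0.551, 2.28 and 0.59 CPM on day 0, against 9.03 to 87.5 CPM later, and its offset was -5.64 ± 0.74 (adjusted p = 2.48e-05). PDC1, a pyruvate decarboxylase of ethanol fermentation, was at 1.35, 1.06, 1.89 and 0.848 CPM on day 0 and between 2.27 and 16 CPM later, an offset of -2.04 ± 0.61 (adjusted p = 0.021) that was lost without day 0 replicate 2 or 4 (adjusted p up to 0.0603). Its paralog PDC2 lay above the line (0.31 ± 0.10, adjusted p = 0.0394), a call lost without any one of 9 libraries (adjusted p up to 0.226). RAP2.12, a relative of ERF71, also lay above it (0.29 ± 0.08, adjusted p = 0.0166), a call lost without day 0 replicate 2 (adjusted p = 0.0949). The other 12 genes, among them the alcohol dehydrogenase gene ADH1 and the sucrose synthase genes SUS1 and SUS4, did not pass the test.

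The promoters of these genes were read for the mitochondrial dysfunction motif, the site through which NAC013 is known to act, which was chosen after the offsets were seen. Windows of 250 bases before the gene start, searched on both strands, held it in 0.942% of 19643 tested genes, in 2.25% of those called lower on day 0 and in 0.699% of those called higher. Among the 345 called genes whose day 0 levels all lay below the later ones, 21 (6.09%) had it, as did 8 (1.47%) of the 544 whose day 0 levels all lay above. CYP81D8 had a match, and so did AT5G51440, a gene without a symbol in the reference and named after its values were seen, which was at 0.299, 0.315, 0.849 and 0.516 CPM on day 0 and between 2.35 and 26.8 CPM later (-4.56 ± 0.66, adjusted p = 7.78e-05). AT5G51440 could not pass the expression filter without later samples, so its negative offset was in part set by it. In the mitochondrial list NDA1, NDB2, NDB3 and NAC017 had matches, and none of the 4 had a called offset. No match fell in the windows of AOX1A, NDB4 or ERF71. Sequences of RefSeq TAIR10.1 around the matches are shown 5′ to 3′ on the gene's strand, with the motif in capitals, for both genes that fell and for NDA1, which did not.
CYP81D8, chr4:17571846-17571908, minus strand: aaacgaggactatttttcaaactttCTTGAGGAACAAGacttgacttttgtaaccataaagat
AT5G51440, chr5:20891028-20891090, plus strand: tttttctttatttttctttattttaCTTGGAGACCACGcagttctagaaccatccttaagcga
NDA1, chr1:2204009-2204071, plus strand: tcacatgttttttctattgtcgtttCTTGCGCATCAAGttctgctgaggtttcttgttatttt

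**Figure D2:**
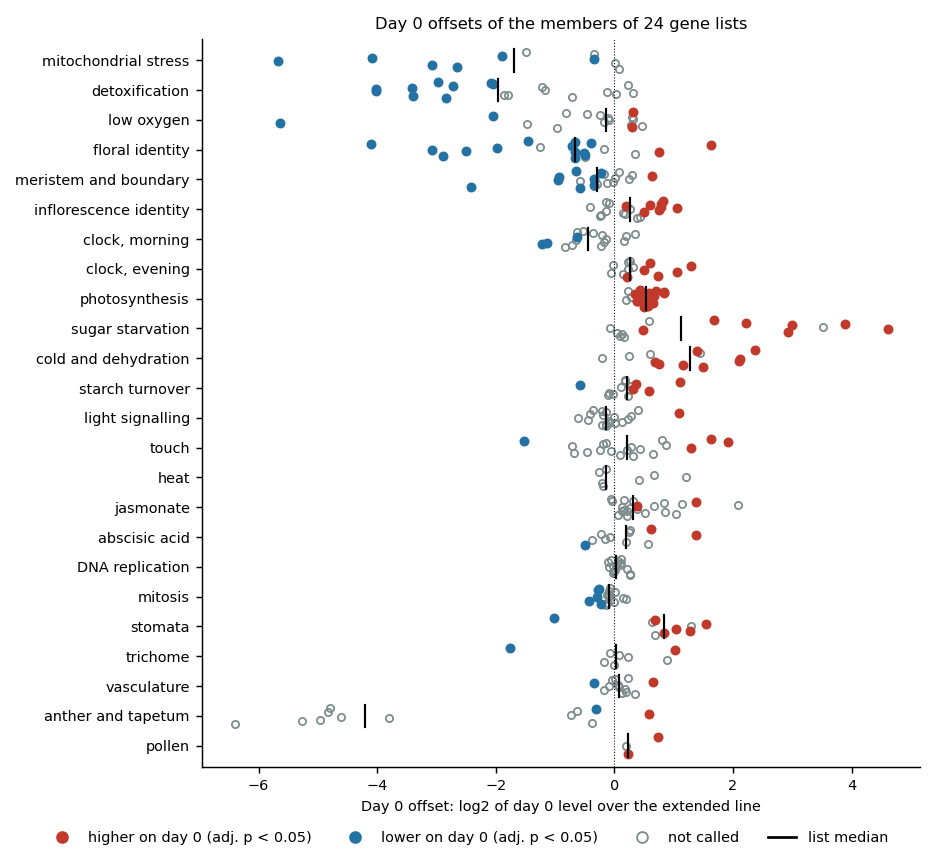
Day 0 offsets (log2) of every tested member of 24 gene lists, 1 point per gene; filled points passed an adjusted p under 0.05 (red higher, blue lower), open points did not, and black bars are list medians. The mitochondrial stress, detoxification and floral identity lists hold most of their called members left of 0, and photosynthesis, sugar starvation and cold hold theirs right of 0.

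The called clock genes of the evening lay above the line and those of the morning below it. Of 13 evening genes, 6 rose, none fell and 7 did not pass (median offset 0.27). Of 16 morning genes, 3 fell, none rose and 13 did not pass (median -0.45). The morning list's share of calls was close to the 19.0% over all tested genes, 10.9% higher and 8.11% lower. The difference between the 2 lists was not tested. LUX, a repressor of the evening complex, was at 50.2, 54.8, 53.7 and 59.4 CPM on day 0, against 34.3 to 48.4 CPM in the later samples, an offset of 0.50 ± 0.10 (adjusted p = 0.000882). ELF4, a second member of the complex, was at 49.3, 47.9, 50.1 and 55.4 CPM on day 0 and between 13.6 and 44.2 CPM later, an offset of 1.06 ± 0.25 (adjusted p = 0.00468). COR27, a clock gene induced by cold and blue light, was at 129, 152, 198 and 142 CPM on day 0 and between 30 and 125 CPM later, an offset of 1.28 ± 0.33 (adjusted p = 0.00808). All 4 day 0 values lay above every later one for these 3 genes. The ELF4 call was lost with replicate 2, 3 or 4 left out on every day (adjusted p up to 0.069) and that of COR27 with replicate 2 or 3 left out (adjusted p up to 0.115), whereas LUX was called in each case.

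FKF1, a blue light receptor of the flowering pathway, was at 119, 128, 106 and 114 CPM on day 0 and between 48.1 and 113 CPM later. Its day 0 samples overlapped the highest later sample, and the offset of 0.73 ± 0.21 (adjusted p = 0.0155) was just lost without day 0 replicate 2 (adjusted p = 0.0502). BOA, a close relative of LUX, had an offset of 0.60 ± 0.19 (adjusted p = 0.0311), lost without any one of 6 libraries (adjusted p up to 0.0955). GI, the partner of FKF1, which was named after its values were seen, had an offset of 0.21 ± 0.07 (adjusted p = 0.0445), lost without any one of 14 libraries (adjusted p up to 0.157). Summed over the evening list, the day 0 samples held 1130 to 1240 CPM and the later ones 744 to 1070 CPM. There were 3 evening calls without day 0 replicate 2 and 6 without day 0 replicate 3.

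Among the morning genes RVE4, a MYB-like activator of evening genes, was at 39.8, 38.1, 45.5 and 42.6 CPM on day 0 and between 42.6 and 67.4 CPM later, with an offset of -0.63 ± 0.13 (adjusted p = 0.00198). The RVE4 call was lost with 1 of the replicate numbers left out on every day (adjusted p = 0.0778). CCA1, one of the core morning repressors, was at 7.86, 5.43, 1.93 and 5.38 CPM on day 0 and between 4.75 and 20.6 CPM later, so that the groups overlapped. Its offset of -1.22 ± 0.42 (adjusted p = 0.0447), and that of RVE8, a relative of RVE4 (-1.14 ± 0.39, adjusted p = 0.0444), were lost without any one of 14 libraries (adjusted p up to 0.126 and 0.128). Without day 0 replicate 3, the lowest for CCA1 and RVE8, 1 morning gene was called, and scaled to library totals, 5 were. LHY, the partner of CCA1, had an offset of -0.83 ± 0.41 (adjusted p = 0.163) and is named after its values were seen. No clock gene's offset was called under the curve.

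The evening element, AAAATATCT on either strand, is the site that morning MYB-like factors bind in evening genes. It was in the 250 bases before the start of 6 of 13 evening genes (PRR5, TOC1, LUX, BOA, FKF1 and COR27) and of 1 of 16 morning genes (RVE7). Over all tested genes it was in 2.5% of these windows, in 3.54% of those of genes called higher on day 0 and in 2.12% of those called lower. The 4 called evening genes that hold it are shown from RefSeq TAIR10.1 with the element in capitals. It reads on the opposite strand in BOA and FKF1, and COR27 holds it on both strands.
LUX, chr3:17182964-17183022, plus strand: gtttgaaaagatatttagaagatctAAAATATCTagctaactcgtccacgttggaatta
FKF1, chr1:25508428-25508486, plus strand: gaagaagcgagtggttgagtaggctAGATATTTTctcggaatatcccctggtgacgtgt
BOA, chr5:24003820-24003878, plus strand: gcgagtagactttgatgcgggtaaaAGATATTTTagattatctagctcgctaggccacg
COR27, chr5:17199916-17199974, minus strand: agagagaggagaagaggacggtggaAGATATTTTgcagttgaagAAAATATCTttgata
The called evening genes ELF4 and GI had no match in this window. Of the other motifs searched, the G-box CACGTG was in 7.69% of windows of higher genes and 7.68% of those of lower genes, against 7.42% of all. The DRE core CCGAC was in 13.4% of higher and 12.2% of lower genes, against 13% of all, and the CCA1 site AAAAATCT in 7.08% and 6.81%, against 6.83%. The GCC box GCCGCC was in 1.72% of higher and 1.25% of lower genes, against 1.97% of all, the telo-box AAACCCTAA in 1.58% and 2.31%, against 2.2%, and the CArG box in 2.84% and 2.56%, against 2.66%.

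**Figure D3:**
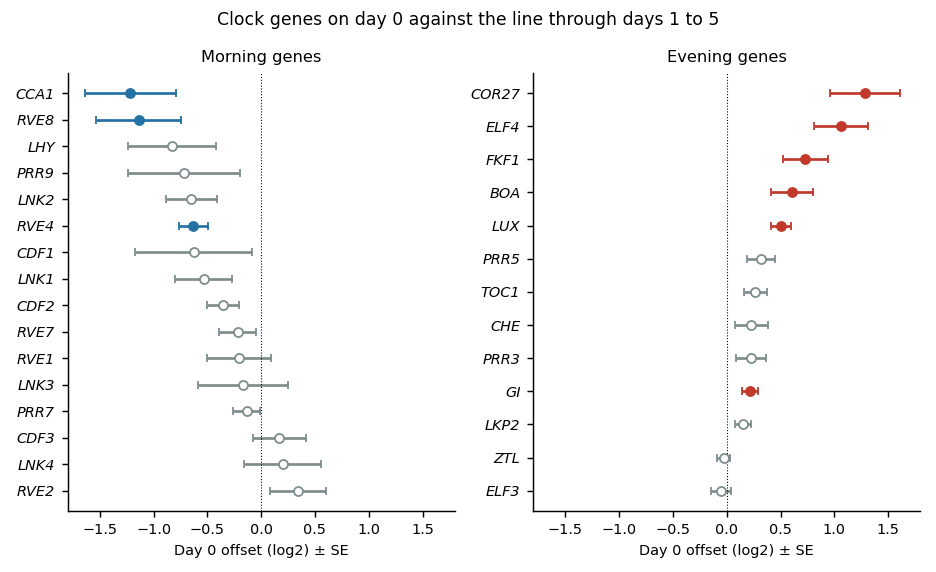
Day 0 offset (log2) ± SE of 16 morning genes (left) and 13 evening genes (right); filled coloured points passed an adjusted p under 0.05 and grey open points did not. The called morning genes RVE4, RVE8 and CCA1 lie left of 0, and the called evening genes, from GI at 0.21 to COR27 at 1.28, lie right of it.

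Most floral identity genes stood below the line on day 0. Of 19 tested, 13 fell and 2 rose, with a median offset of -0.66, beside 8.11% lower and 10.9% higher over all tested genes. AP3, a petal and stamen identity gene, was at 6.02, 11, 7.41 and 10.5 CPM on day 0, against 62.8 to 193 CPM in later samples. The groups were far apart, the offset was -3.08 ± 0.24 (adjusted p = 5.15e-08), and it held under the curve (-1.94, adjusted p = 5.72e-05). AP3 was among the genes picked for size, so its separate groups are no added evidence. LFY was at 50.9, 47, 44.4 and 51.7 CPM on day 0 and between 52.6 and 120 CPM later. Its means peaked at 114 CPM on day 2 and came down to 62 CPM on day 5, and its offset of -1.45 ± 0.15 (adjusted p = 1.05e-06) also held under the curve (-0.78, adjusted p = 0.0308).

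JAG, a zinc finger gene of organ growth, was at 0.449, 0.551, 0.811 and 0.7 CPM on day 0, against 3.65 to 16.5 CPM later, an offset of -2.89 ± 0.36 (adjusted p = 1.51e-05). AP2, a sepal and petal identity gene, was at 35, 32.6, 38.4 and 32.9 CPM on day 0 and between 63.8 and 158 CPM later, an offset of -0.71 ± 0.09 (adjusted p = 1.65e-05). JAG and AP2 held under the curve as well (-1.34, adjusted p = 0.0253, and -0.65, adjusted p = 0.0418). Named after their values were seen, the stamen and carpel gene AG (-1.98 ± 0.27, adjusted p = 3.25e-05) and the AP3 partner PI (-0.66 ± 0.13, adjusted p = 0.00136) fell too. AG was at 2.47, 4.01, 2.43 and 3.91 CPM on day 0 and between 9.48 and 36 CPM later, and PI at 52.4 to 67 CPM on day 0 and between 84.7 and 165 CPM later. LMI1, a homeodomain gene downstream of LFY, went the other way, at 4.49, 5.15, 5.52 and 4.9 CPM on day 0 and between 2.07 and 18.2 CPM later. Its groups overlapped, because it climbed by 0.62 per day on the log2 scale, and its offset was 1.63 ± 0.20 (adjusted p = 1.36e-05).

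AP1 itself, whose counts cannot separate the fusion transgene from the mutant allele, was at 182, 197, 156 and 199 CPM on day 0, against 241 to 339 CPM later. No day 0 sample overlapped, and the offset was -0.49 ± 0.09 (adjusted p = 0.000938). CAL was at 20.1, 16.4, 16.4 and 21 CPM on day 0 and its later means stood at 16.3 CPM on day 1 and 6.09 CPM on day 5. Its day 0 level was close to the extended line of 21.5 CPM, with an offset of -0.21 ± 0.12 (adjusted p = 0.234). Summed over the floral identity list, day 0 samples held 577 to 658 CPM and later samples 875 to 1540 CPM. The list had 13 called lower without day 0 replicate 2, and had 14 without day 0 replicate 3 and 15 with library totals.

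Among genes of inflorescence identity and of the transition to flowering, the called ones lay above the line. Of 19 tested, 8 rose, none fell and 11 did not pass, with a median offset of 0.26. The shares over all tested genes were 10.9% higher and 8.11% lower. TFL1, which keeps shoots from becoming flowers, was at 32.8, 30.1, 28.6 and 26.5 CPM on day 0, against 8.91 to 18.4 CPM later, an offset of 0.79 ± 0.12 (adjusted p = 0.000187). SPL15, a squamosa promoter binding factor that promotes flowering, was at 46.6, 45.2, 44.1 and 43.2 CPM on day 0 and between 21.3 and 31.7 CPM later, an offset of 0.79 ± 0.10 (adjusted p = 1.48e-05). Its later means stayed between 24.9 and 28.4 CPM, so that nearly the whole change lay between day 0 and day 1. FD, the bZIP partner of florigen, was at 165, 144, 157 and 152 CPM on day 0 and between 30.4 and 88.6 CPM later, an offset of 0.60 ± 0.11 (adjusted p = 0.000622). The day 0 samples of TFL1, SPL15 and FD were all above the later ones.

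SPL9 (0.75 ± 0.14, adjusted p = 0.00103) and SPL5 (1.05 ± 0.18, adjusted p = 0.000457), of the same family as SPL15, were above the line, but their day 0 levels overlapped those of later days, which climbed by 0.10 and 0.38 per day. SVP, a floral repressor that AP1 is known to repress, shows the difference between level and offset. All 4 day 0 values, 103, 94, 97.9 and 111 CPM, lay above the later range of 16.2 to 70 CPM. The line fell by 0.48 per day and reached 89.9 CPM when extended to day 0, and the offset was 0.17 ± 0.08 (adjusted p = 0.126; -0.01 under the curve). Of this list, 6 genes were called higher without day 0 replicate 2.

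Of 19 meristem and boundary genes, 8 fell below the line and 1 rose above it (median offset -0.29). Over all tested genes, 8.11% fell and 10.9% rose. In level the list was not low on day 0: its sum was 925 to 1020 CPM on day 0 and 462 to 971 CPM later, 4 members had all day 0 levels above the later ones, and none had them all below. Of all tested genes, 4.04% had them all above and 3.17% all below. DRNL, which marks organ founder cells, was at 3.97, 7.51, 4.82 and 5.09 CPM on day 0, while its later means were 12 CPM on day 1, 12.8 CPM on day 2 and 1.67 CPM on day 5. Its groups overlapped in level, and the offset of -2.41 ± 0.33 (adjusted p = 3.95e-05) came from a line that pointed to 28.5 CPM on day 0. The boundary genes CUC1 (-0.93 ± 0.15, adjusted p = 0.000187), CUC2 (-0.65 ± 0.13, adjusted p = 0.00141) and KNAT6 (-0.59 ± 0.09, adjusted p = 0.000113) had the same course, with a day 0 level under that of day 1 and a lower level again by day 5. LSH4, a boundary gene of the ALOG family, rose instead, at 42.1, 41.2, 41.9 and 38 CPM on day 0 and between 18.7 and 28.9 CPM later (0.63 ± 0.10, adjusted p = 0.000203). Its groups did not overlap.

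Most genes of photosynthesis were a little higher on day 0. Of 30 tested nuclear genes for photosystem subunits, antenna proteins and Calvin cycle enzymes, 27 rose and none fell, with a median offset of 0.53, and 18 had all day 0 levels above all later ones. Over all tested genes, 10.9% rose, 8.11% fell, and 4.04% had all day 0 levels above the later ones. PSAG, a photosystem I subunit, was at 346, 475, 486 and 363 CPM on day 0, against 194 to 324 CPM later (0.65 ± 0.12, adjusted p = 0.000887). PSAD-1, a second subunit of photosystem I, was at 293, 393, 369 and 305 CPM on day 0 and between 179 and 285 CPM later (0.60 ± 0.11, adjusted p = 0.000782). Neither gene overlapped between the groups. PSBW of photosystem II (0.58 ± 0.11, adjusted p = 0.000951), PSAO of photosystem I (0.56 ± 0.12, adjusted p = 0.00179) and the Calvin cycle enzyme gene SBPASE (0.49 ± 0.10, adjusted p = 0.002) gave like values. The list's summed level was 18600, 24900, 24900 and 19000 CPM on day 0 and between 11100 and 18300 CPM later. Replicates 2 and 3 stood above replicates 1 and 4, and without replicate 2 of day 0 there were 22 calls, without replicate 3 there were 23, and with library totals 23.

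**Figure D4:**
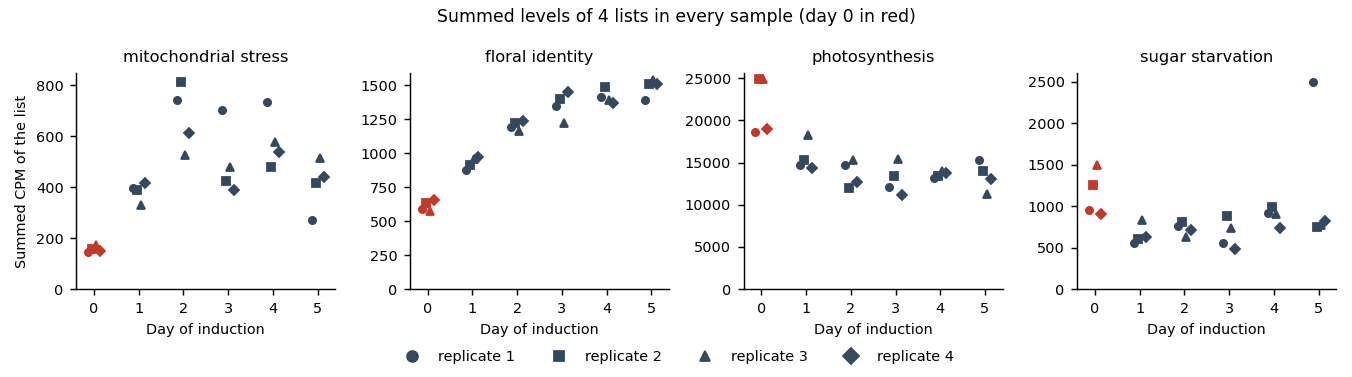
Summed CPM of the genes of 4 lists in each of the 24 samples by day, with day 0 in red and 1 marker shape per replicate number. Mitochondrial stress and floral identity genes are lowest on day 0, photosynthesis genes highest, and sugar starvation genes are high on day 0 and in day 5 replicate 1, at 2500 CPM.

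The called genes of sugar starvation and darkness lay above the line on day 0. Of 14 tested, 7 rose and none fell (median offset 1.13), a count that was also 7 without day 0 replicate 2, without day 0 replicate 3 or without day 5 replicate 1. Over all tested genes, 10.9% rose and 8.11% fell. ASN1, the dark-induced asparagine synthetase, was at 5.24, 14.4, 43.2 and 7.37 CPM on day 0, and its later means were 2.96, 3.27, 8.47, 31.1 and 88 CPM on days 1 to 5. SEN1, a dark-induced senescence gene, was at 33.4, 68.4, 161 and 35.5 CPM on day 0, and its later means were 13.9, 9.87, 11.1, 37.7 and 98.5 CPM. Day 0 overlapped later levels for both, and replicate 3 was the highest of day 0. The offsets were 4.61 ± 0.87 for ASN1 (adjusted p = 0.000874) and 3.89 ± 0.78 for SEN1 (adjusted p = 0.00134).

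MIOX2, a myo-inositol oxygenase, was at 56.6, 91.7, 79 and 63.3 CPM on day 0 and had a median of 18.5 CPM later, with 1 sample at 224 CPM (2.94 ± 0.63, adjusted p = 0.00216). Its relative MIOX4 was at 17.4, 31.3, 41.3 and 25.4 CPM on day 0 and had a median of 3.68 CPM later (3.00 ± 0.65, adjusted p = 0.00258). ERD5, the proline dehydrogenase of amino acid breakdown and no member of the list, was at 257, 508, 481 and 302 CPM on day 0 and had a median of 123 CPM later (2.63 ± 0.59, adjusted p = 0.00301). The exception to the overlap was BXL1, a beta-xylosidase, at 17.3, 23.4, 34.7 and 15.3 CPM on day 0 and between 4.13 and 13.1 CPM later (1.69 ± 0.27, adjusted p = 0.000217). Without day 5 replicate 1 the offsets were 4.23 for ASN1, 3.40 for SEN1, 2.29 for MIOX2 and 2.00 for ERD5, all still called.

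In starch turnover, 4 of 14 genes rose and 1 fell, beside 10.9% higher and 8.11% lower over all tested genes. The chloroplast beta-amylase gene BAM3 was at 104, 102, 103 and 94.5 CPM on day 0 and between 88.1 and 158 CPM later (-0.58 ± 0.11, adjusted p = 0.000629). PHS2, a cytosolic glucan phosphorylase, was at 460, 411, 436 and 447 CPM on day 0 and between 221 and 363 CPM later (0.32 ± 0.10, adjusted p = 0.0226), with separate groups. The other called genes were the catalytically inactive amylase BAM9 (1.11 ± 0.33), the maltose exporter MEX1 (0.37 ± 0.11) and the stress-related amylase BAM1 (0.59 ± 0.19). The PHS2 call was lost without day 0 replicate 1 (adjusted p = 0.0536), those of BAM9 and MEX1 without day 0 replicate 2 (adjusted p = 0.0748 and 0.0587), and that of BAM1 without day 0 replicate 2 or 3 (adjusted p up to 0.0804). Without day 0 replicate 2, 1 gene of the list was called higher. BAM1 had an offset of -0.12 under the curve.

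Of 12 cold and dehydration genes, 8 rose and none fell (median offset 1.28), beside 10.9% higher and 8.11% lower over all tested genes. COR15B, a chloroplast protectant, was at 22.2, 25.9, 18.5 and 21.1 CPM on day 0, with later means of 8.33, 6.53, 5.8, 7.91 and 17.9 CPM on days 1 to 5. The level was high at both ends and low between them, and the offset was 2.10 ± 0.33 (adjusted p = 0.000201). Its paralog COR15A (2.12 ± 0.56, adjusted p = 0.00996) shares sequence with it, so that reads could be split between them. The dehydrin genes COR47 (1.49 ± 0.29, adjusted p = 0.00118) and ERD10 (1.16 ± 0.25, adjusted p = 0.00258), KIN2 (1.40 ± 0.27, adjusted p = 0.00117) and the membrane protein gene COR413-PM1 (0.76 ± 0.14, adjusted p = 0.00094) rose above lines that climbed by 0.20 to 0.72 per day. COR47 was at 15.2 to 25.6 CPM on day 0 and at a mean of 100.3 CPM on day 5. CBF2 and CBF3, the cold factors that switch these genes on, did not pass the test.

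Genes of the cuticle climbed steeply on the later days. SHN1, a factor that switches on wax and cutin synthesis, was at 0.898, 0.983, 1.08 and 0.516 CPM on day 0, and its later means were 0.698, 0.857, 2.01, 9.35 and 39.1 CPM. The step between day 0 and day 1 did not pass the test (-0.31, adjusted p = 0.712), while the line ran back to 0.109 CPM, below the lowest later sample of 0.392 CPM, and the offset was 3.00 ± 0.60 (adjusted p = 0.00139). RXF26, a GDSL-type esterase (3.01 ± 0.89, adjusted p = 0.0195), CYP86A4, a cutin hydroxylase (2.38 ± 0.62, adjusted p = 0.0089), and KCS5, of fatty acid elongation (2.12 ± 0.42, adjusted p = 0.00126), also lay above climbing lines. Their steps between day 0 and day 1 were -0.05 for RXF26 (adjusted p = 0.966), -0.59 for CYP86A4 (adjusted p = 0.213) and -1.09 for KCS5 (adjusted p = 0.00826), which had means of 19.8 CPM on day 0 and 9.31 CPM on day 1. Under the curve the offsets of RXF26, CYP86A4 and KCS5 were -1.49, -1.33 and -0.19. GASA1, a gibberellin-responsive peptide gene, was at 4.08, 7.63, 11 and 6.34 CPM on day 0 and between 1.58 and 16.2 CPM later, with an offset of 2.24 ± 0.46 (adjusted p = 0.00168).

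Of 19 touch and rapid-response genes 3 rose and 1 fell, a share close to the 19.0% called over all genes. ZAT12, a zinc finger factor of oxidative stress, was at 2.43, 2.95, 2.39 and 2.84 CPM on day 0 and between 4.39 and 30.4 CPM later, with separate groups (-1.52 ± 0.38, adjusted p = 0.00711; 0.06 under the curve). The MYB factor gene MYB44 (1.64 ± 0.37, adjusted p = 0.00341) and the touch-induced wall enzyme gene XTH22 (1.91 ± 0.46, adjusted p = 0.0055) rose above climbing lines with overlapping levels, and so did BAP1 (1.29 ± 0.41, adjusted p = 0.0282), whose call was lost without day 0 replicate 1 or 2 (adjusted p up to 0.0692). Of 21 jasmonate genes 2 rose, a share close to the 10.9% called higher over all genes. They were JAR1, which makes the active hormone conjugate (0.39 ± 0.12, adjusted p = 0.0211), and LOX2, a lipoxygenase of its synthesis (1.38 ± 0.48, adjusted p = 0.0467). The JAR1 call was lost without day 0 replicate 2 or 3 (adjusted p up to 0.0633) and the LOX2 call without any one of 16 libraries (adjusted p up to 0.145), and both had negative offsets under the curve, -0.22 and -1.07.

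Among 11 abscisic acid genes the phosphatase gene HAI1 (0.61 ± 0.14, adjusted p = 0.00412) and the NAC factor RD26 (1.37 ± 0.38, adjusted p = 0.014) rose. The shares over all tested genes were 10.9% higher and 8.11% lower. The phosphatase gene HAB1, at 52.2, 40.3, 51 and 54.1 CPM on day 0 and between 59.5 and 100.2 CPM later, fell with separate groups (-0.50 ± 0.11, adjusted p = 0.00207). None of 7 heat genes was called, and of 19 light signalling genes only BBX20 was (1.09 ± 0.36, adjusted p = 0.0363), a call lost without any one of 8 libraries (adjusted p up to 0.191).

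None of 16 DNA replication genes was called, beside 19.0% of all tested genes. Of 17 mitosis genes 5 fell by small amounts and none rose, beside 8.11% lower and 10.9% higher over all tested genes. CYCB2;4 fell the most (-0.42 ± 0.09, adjusted p = 0.00291), with a day 0 mean of 70.3 CPM and a day 5 mean of 69.2 CPM. CYCB1;1 had an offset of -0.26 ± 0.07 (adjusted p = 0.00839). There were 2 mitosis calls without day 0 replicate 2.

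Markers of other cell types moved in part with day 0. In the stomatal lineage 5 of 9 genes rose and 1 fell, beside 10.9% higher and 8.11% lower over all tested genes. ERL1, a receptor kinase that limits stomata and also acts in flower growth, was at 131, 113, 120 and 120 CPM on day 0, with later means of 190 CPM on day 1, 212 CPM on day 2 and 121 CPM on day 5 (-1.01 ± 0.14, adjusted p = 4.42e-05). The receptor-like protein gene TMM (1.04 ± 0.20, adjusted p = 0.000997), the peptide gene EPF2 (1.28 ± 0.31, adjusted p = 0.00536), and the factors SPCH (0.68 ± 0.17, adjusted p = 0.00574) and SCRM2 (0.84 ± 0.23, adjusted p = 0.0116; -0.05 under the curve) rose, with levels that overlapped later ones. The list's summed level was 206 to 245 CPM on day 0 and 222 to 308 CPM later, and its part in the other offsets was not tested.

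TRY, an inhibitor of trichome fate, was at 1.16, 1.1, 1.04 and 1.33 CPM on day 0 and between 3.74 and 13.2 CPM later (-1.75 ± 0.20, adjusted p = 6.11e-06; -1.13 under the curve, adjusted p = 0.0475). It was 1 of 2 trichome genes called of 8, the other being GL3, an activator (1.01 ± 0.33, adjusted p = 0.0344), whose call was lost without any one of 6 libraries (adjusted p up to 0.0983). Of 13 vascular genes 1 rose and 1 fell, and no call was left without day 0 replicate 2 or without day 0 replicate 3. Of 12 tapetum and anther genes 1 rose and 1 fell, while 11 had negative offsets. With 1 call each way, the trichome, vascular and tapetum lists were close to the shares over all tested genes, 10.9% higher and 8.11% lower. The tapetum list's median fitted offset was -4.20, or -2.96 with the 2 genes without a day 0 count set to 3 counts over the 4 samples. Of the 12, 7 had under 25 day 0 counts in all. These 7 could pass the expression filter only through later samples where they were higher. Their negative offsets and the list's median were therefore in part set by the filter. The called genes were TPD1, the ligand that starts tapetum fate (0.58 ± 0.13, adjusted p = 0.00395), and its receptor EMS1 (-0.31 ± 0.09, adjusted p = 0.0204), a call lost without day 0 replicate 2 or 4 (adjusted p up to 0.0774). The summed tapetum list was 69.7 to 89.6 CPM on day 0 and 91.7 to 203 CPM later. Its late members were near 0 on day 0: ACOS5, of pollen wall synthesis, was at 0.0748, 0.118, 0 and 0.0369 CPM on day 0 and between 0 and 18 CPM later, uncalled (adjusted p = 0.0969). Of 3 tested pollen markers, ACT11 (0.74 ± 0.20, adjusted p = 0.0113) and TUA1 (0.24 ± 0.06, adjusted p = 0.0125) rose, and both are also expressed outside pollen.

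A straight line bends away at both ends of a curved course, so both ends were measured alike, as offsets of day 0 and of day 5 from a line through days 1 to 4. On that scale 1963 genes (9.94%) departed on day 0, 1215 above (6.15%) and 748 below (3.79%), and 654 (3.31%) on day 5, 390 above (1.97%) and 264 below (1.34%). Of the genes called higher on day 0 against the full line, 165 also had a called positive day 5 end offset, and of those called lower, 77 had a called negative one. The difference between the 2 end offsets was called for 88 genes (0.446%), 54 (0.273%) with the higher offset on day 0 and 34 (0.172%) with the higher on day 5, and 2232 genes had an unadjusted p under 0.05. With replicate 1 left out on every day it was called for 25 and 8 genes, with replicate 3 for 9 and 3, and with replicate 4 for 27 and 10. With replicate 2 left out edgeR called it for no gene, with 1514 at an unadjusted p under 0.05, so that every call of a difference given below was lost in that setting.

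AP3 was one of the 34, with end offsets of -2.81 on day 0 and -0.61 on day 5 (difference -2.20, adjusted p = 0.00539). AP2 was another (-0.71 on day 0 and 0.01 on day 5, adjusted p = 0.0465). For COR15B the ends were alike, 1.53 on day 0 and 1.42 on day 5, and the difference was 0.11 (adjusted p = 0.949). For AOX1A they were -3.59 on day 0 and -1.17 on day 5, a difference that did not pass (-2.42, adjusted p = 0.171). ELF4 had 1.18 on day 0 and -0.29 on day 5 (difference 1.47, adjusted p = 0.171), and CYP86A4 had 1.17 on day 0 and 2.72 on day 5 (difference -1.55, adjusted p = 0.335).

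Other genes whose ends differed were picked after their values were seen. KNATM, a KNOX protein without a homeodomain, was at 2.88, 2.71, 3.2 and 3.39 CPM on day 0, against 0.392 to 2.75 CPM later, with daily means of 0.68 CPM on day 1 and 2.13 CPM on day 5. Only the highest later sample reached the day 0 range, and the difference of ends was 3.03 (adjusted p = 0.00253). YAB2, a gene of the lower face of organs, was at 15.1, 17.2, 17.6 and 13.9 CPM on day 0 and had means of 10.7 CPM on day 1 and 26.7 CPM on day 5 (difference 1.37, adjusted p = 0.00539). KNATM and YAB2 thus had a dip on day 1 before they climbed, and both held under the curve (2.79, adjusted p = 0.00204, and 1.21, adjusted p = 0.00462).

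YAB3, of the same family as YAB2, had a difference of 1.28 (adjusted p = 0.00698) without a called day 0 offset from the full line (0.33 ± 0.17, adjusted p = 0.193). NGA2, a factor of leaf and style shape, had one of 2.16 (adjusted p = 0.00171), and CKX1, which degrades cytokinin, one of 2.81 (adjusted p = 0.00903). Under the curve the day 0 offset was called for YAB3 (1.295, adjusted p = 5.72e-05), NGA2 (1.91, adjusted p = 0.00204) and CKX1 (2.37, adjusted p = 0.0475). In the other direction ROT3, a brassinosteroid enzyme, was at 2.58, 3.03, 3.44 and 3.02 CPM on day 0 and between 6.35 and 9.9 CPM later, without overlap and with no later slope (difference -1.52, adjusted p = 0.00664). ROT3 held under the curve as well (-1.19, adjusted p = 0.0104). WUS, the stem cell organiser, had end offsets of -0.94 on day 0 and 0.94 on day 5 (difference -1.88, adjusted p = 0.0391), and its day 0 offset from the full line was -0.59 ± 0.26 (adjusted p = 0.116).

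**Figure D5:**
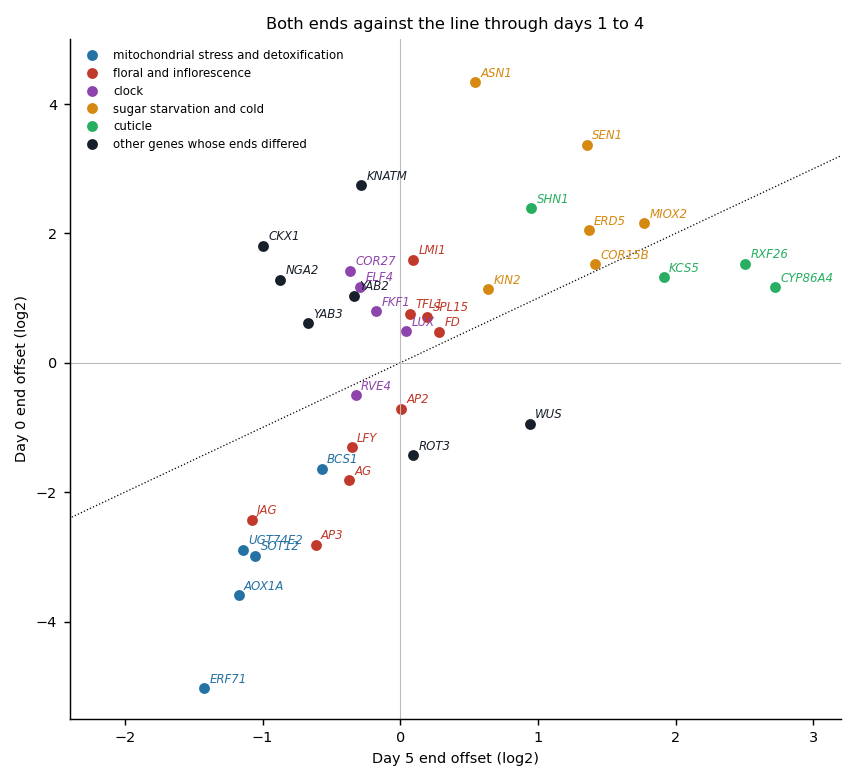
Offsets (log2) of day 0 (vertical) and of day 5 (horizontal) from the line through days 1 to 4 for named genes, coloured by group; the dotted diagonal marks equal offsets. AP3 and ROT3 lie below the diagonal, KNATM, CKX1, NGA2 and YAB2 above it, and COR15B, at 1.53 on day 0 and 1.42 on day 5, close to it.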

How the data were processed

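Inflorescence mRNA (polyA) was measured by RNA-seq in 2 sequencing batches, per the labels. The submitters' processing notes name FastQC, Trim Galore, Salmon 0.12.0, DESeq2 and TAIR10, with no role or setting for any of them. The authors deposited expected counts, already whole numbers, with a column for each run. Here the 2 runs of a sample were summed, giving n = 4 per day. Their chi-square per degree of freedom was 1.05 to 1.23. Of 23069 genes, none with a row total under 10, 19747 passed filterByExpr by day (minimum count 10, minimum total 15). The quasi-likelihood test of edgeR 4.0.16 (R 4.3.3, TMM factors) was fitted to all 24 samples with day and a day 0 indicator (21 residual degrees of freedom). Adjusted p-values follow Benjamini-Hochberg across the 19747 genes. An SE is the offset divided by the square root of its F statistic, and CPM were computed with the TMM factors.

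Gene symbols and promoter positions are from RefSeq TAIR10.1, which matched 22856 IDs. The genes named were the 12 largest positive and negative offsets (mean of at least 5 CPM, detrended day 0 values outside the others), up to 5 members per list by p, the floral genes AP1, CAL, LFY, AP3, SVP and TFL1, and genes marked in the text. Genes and lists were chosen with earlier results of these data known. On simulated counts (19629 genes) a day 0 offset of 1.5-fold was recovered in 79.1% of genes and of 2-fold in 89.6%, and 3.24% of calls were false. These counts were drawn from the fitted straight lines, each gene and sample independently, and the changed genes averaged at least 5 CPM. Only 67 genes were changed by 1.5-fold, 67 by 2-fold and 66 by 4-fold, whereas 19.0% of genes were called in the data. The shares therefore do not cover offsets that come from a bent course, deviations that many genes of a sample share, or so large a share of changed genes. The proteome of these samples is not analysed here.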

Additional observations from a re-analysis of the deposited data

Results flagged for a closer look

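Among 134 sets of 4 day 0 values, of named genes and of list sums, that were checked for 1 sample apart from the rest, 6 had one, all of named genes. Chance gives about 1 in 20. Day 0 replicate 3 stood apart for 4 genes. It was the highest for NDB4, at 0.425 CPM (0.184 to 0.224 in the other day 0 samples), for ERF71, at 2.28 CPM (0.374 to 0.59), and for UGT73B4, at 0.463 CPM (0.0748 to 0.111), and the lowest for COR15A, at 5.4 CPM (8.03 to 8.38). In the 3 genes of low day 0 level it lay toward the later samples without reaching them. All 3 were among the genes picked for size, which had to have day 0 values outside the later ones once the slope was taken off. Day 0 replicate 4 was the lowest for JAR1, at 29.9 CPM (35.3 to 36.3 in the others), and day 0 replicate 2 the highest for SPL5, at 82.6 CPM (63.5 to 65.7).

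The offsets of the 2 ends of the time course from the line through days 1 to 4 differed for 54 genes in favour of day 0 and for 34 in favour of day 5, by a test of the difference itself (edgeR, adjusted p under 0.05). On the same simulated counts, which held no bent courses, this test recovered 22.4% of day 0 offsets of 1.5-fold and 61.2% of those of 2-fold.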

How the results depend on the processing

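Main counts of day 0 offsets were 2154 higher and 1602 lower. A curve gave 61 and 33, a test against 1.5-fold 93 and 85, a line through days 1 to 3 232 and 182, a line through days 1 to 4 1215 and 748, library totals 3196 lower, and the mean of days 1 to 5 in place of a line 2767 lower. Leaving out 1 replicate number or 1 library, with the lowest counts for replicate 2, gave 542 to 2349 higher and 405 to 1995 lower. DESeq2, DESeq2 size factors, limma, testing unfiltered genes or those averaging 10 CPM, and either batch alone stayed within 1.5 times. End offsets of day 0 (1215 above, 748 below) became 757 above with batch 1 alone, 27 and 44 against 1.5-fold, 805 and 1461 with library totals, and 127 to 1453 and 138 to 1047 with samples left out. End offsets of day 5 (390 above, 264 below) became 184 and 97 with batch 1, 634 above with DESeq2, 18 and 2 against 1.5-fold, 426 below with library totals, 162 below at 10 CPM, and 56 to 352 and 35 to 197 with samples left out. The difference of ends (54 and 34) became 22 and 8 with batch 1, 136 and 109 with DESeq2, 4 and 1 against 1.5-fold, 22 and 18 at 10 CPM, and 0 to 27 and 0 to 10 with samples left out. The bend (472) became 262 with batch 1, 247 at 10 CPM and 50 to 304 with samples left out. The highest counts of day 0 offsets, 2349 and 1995, came without replicate 1. Causes were not tested.

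Of 110 named genes, 86 kept their sign and lost their call under the curve, 27 with a line through days 1 to 4, 70 with days 1 to 3 and 71 against 1.5-fold, while DESeq2 and limma moved 2 to 3 each and library totals 7. Calls were lost for 5, 43, 20 and 21 of them without replicate 1, 2, 3 and 4, and for up to 19 without a single library (day 0 replicate 2). Setting day 0 against the plain mean of days 1 to 5 turned the sign of 28: ACT11 -0.15, ASN1 -0.61, BAM1 -0.47, BAP1 -0.037, CAL 0.71, CKX1 -2.07, COR15A -0.86, COR47 -1.04, CYCB1;1 0.049, CYP86A4 -1.10, ERD10 -0.48, JAR1 -0.12, KIN2 -0.25, KNAT6 0.0034, LMI1 -0.49, LOX2 -0.95, MYB44 -0.45, NGA2 -1.25, RD26 -3.25, RXF26 -3.20, SHN1 -3.57, SPCH -0.37, SPL5 -0.21, TMM -0.12, WUS 0.77, XTH22 -0.36, YAB2 -0.25 and YAB3 -0.92. The curve turned BAM1 to -0.12, CAL to 0.12, CYP86A4 to -1.33, JAR1 to -0.22, KCS5 to -0.19, LOX2 to -1.07, RXF26 to -1.49, SCRM2 to -0.047, SVP to -0.014 and ZAT12 to 0.059.

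Over all genes, the deviations of same-numbered replicates had correlations of -0.312 to 0.604 (median 0.0456, against -0.00855 for different numbers). Of 24 samples, 9 were closest to their own number. The labels do not say what a shared number means, and pairing was not tested. The main fit used no replicate block. A replicate block gave 2098 higher and 1563 lower day 0 offsets and 21 negative differences of ends.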
